A study of Mus musculus with 6 samples.

Results

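The Rab genes are the 59 protein-coding mouse genes whose symbol is Rab followed by a number and an optional letter, out of 32879 genes in the counts. They were followed in peritoneal macrophages (PMs) from 3 diseased-BWF1 mice and 3 control mice, sorted by flow cytometry on CD11b and F4/80 and sequenced as bulk RNA, with 1 library per mouse. Diseased-BWF1 mice were female [NZB × NZW]F1 animals, a cross that develops lupus spontaneously, taken at 31, 31 and 34 weeks with proteinuria and autoantibodies against double-stranded DNA. Control mice were female [NZW × BALB/c]F1 animals of 33, 33 and 30 weeks, which do not develop the disease. No treatment is named for either group. The groups share the NZW parent and differ in the other parent, so that strain and disease cannot be told apart in any difference below. In bulk RNA, fewer cells of a type and less RNA per cell cannot be told apart either.

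Rab proteins are small GTPases that sit on membranes and give each compartment its identity. A Rab is switched on by an exchange factor that loads GTP, recruits effectors that tether, move or fuse vesicles, and is switched off by a GTPase-activating protein. Macrophages use them to carry engulfed material through early and late endosomes to lysosomes, to return receptors to the surface, and to release cytokines and granule contents. The question asked of the data was which members of the family PMs express, and which of them differ between PMs of diseased and control mice.

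Each library held between 3629901 and 5003360 counts, of which 89.1% to 93.0% fell on named genes. All 9 macrophage markers examined, among them Adgre1 and Csf1r, were expressed in both groups. In CPM, counts scaled to a common library size, their summed level was 37718 to 50900 CPM in control mice and 31539 to 37177 CPM in diseased mice. The summed level of 9 B cell markers was 5.40 to 8.44 CPM in control mice and 2.36 to 4.25 CPM in diseased mice, and that of 8 T cell markers was 1.21 to 6.76 and 1.59 to 3.73 CPM. Neutrophil markers summed to 2.17 to 5.14 and 2.92 to 4.72 CPM, with Ly6g and Retnlg at 0 in every mouse. Mast cell markers reached 34.9 CPM at most, with Mcpt4, Tpsb2, Kit and Fcer1a at 0. Dendritic cell markers reached 14.6 CPM and mesothelial markers 5.75 CPM, with Msln and Upk1b at 0.

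PMs expressed most of the Rab family. Of the 59 genes, 41 had enough counts to be tested, 12 had some counts in at least 1 mouse but stayed at 12 or fewer in each, and 6 had none in any mouse. The 6 genes at 0 were Rab15, Rab17, Rab26, Rab36, Rab39b and Rab6b. A count of 0 allows a level of up to 0.652 to 0.888 CPM, depending on the library, as far as counting error goes. Rab42, with 3 to 12 counts, and Rab44, with 3 to 8 counts, had the most among the untested genes, and Rab27b, a granule Rab of secretory cells, had 0 to 2.

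The order of levels was read per length, as CPM per kb of annotated exon. Rab32, a Rab of lysosome-related organelles, stood highest in control mice at 139 ± 1.90 CPM per kb (SD, n = 3). Rab5c, of early endosomes, followed at 130 ± 3.69, and Rab7, which directs late endosomes to lysosomes, at 128 ± 8.85 CPM per kb. Rab5c and Rab7 differed by less than the spread between mice. Rab1a, which carries cargo from the endoplasmic reticulum (ER) to the Golgi, lay at 103 ± 3.62 CPM per kb, and Rab31 at 100.3 ± 8.20 did not differ from it beyond the spread. In diseased mice Rab7 was at 117 ± 12.9, Rab32 at 113 ± 29.1 and Rab5c at 104 ± 11.4 CPM per kb, with overlapping spreads. Among the tested genes the highest and lowest levels per length were 183-fold apart.

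**Figure D1:**
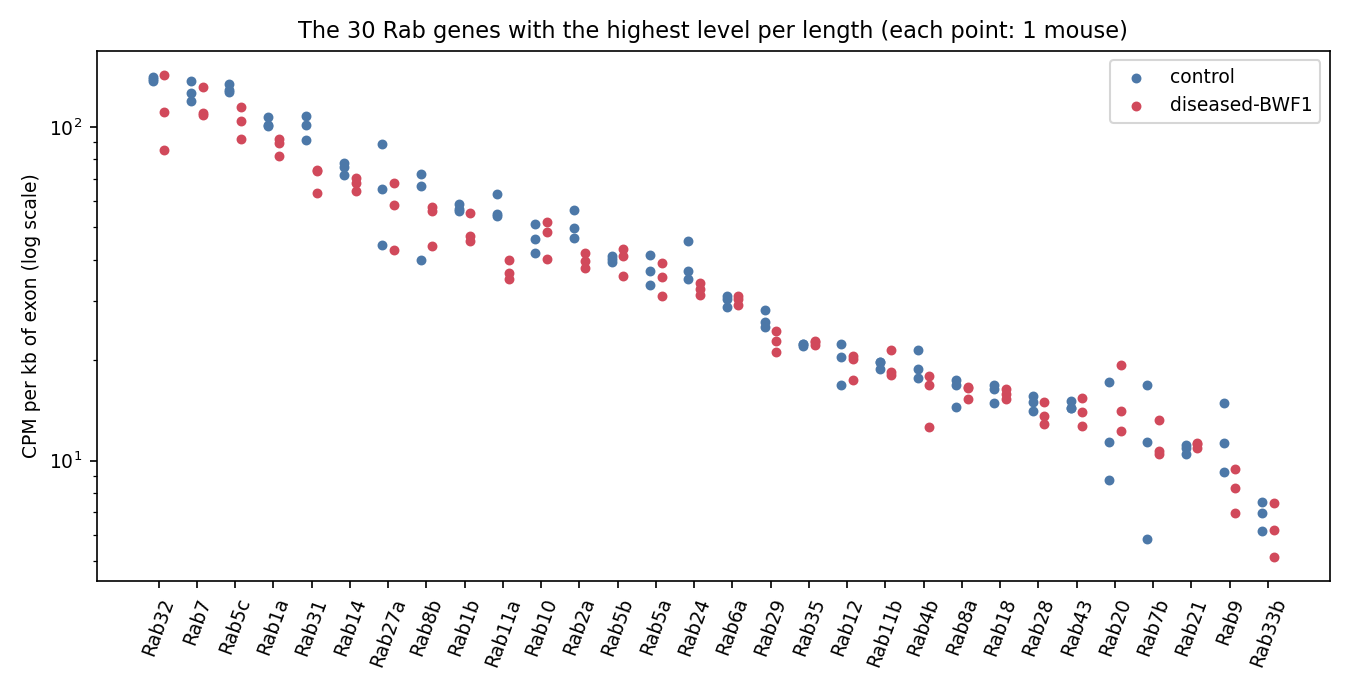
Level of the 30 Rab genes with the highest level per length, in CPM per kb of exon on a log scale, with 1 point per mouse and control mice left of diseased-BWF1 mice. Rab32, Rab7, Rab5c, Rab1a and Rab31 lead. All 3 diseased mice lie below all 3 control mice for Rab11a and Rab31, and also for Rab5c, Rab1a, Rab1b, Rab2a, Rab14, Rab24 and Rab29.

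Summed over all members, the Rab genes stood at 4166, 4189 and 3943 CPM in the control mice. The diseased mice had 3657, 3373 and 3666 CPM. All 3 diseased mice were below all 3 controls, and the means were 4099 ± 136 and 3565 ± 167 CPM (SD, n = 3), a difference of -13%. Rab transcripts took 0.418%, 0.407% and 0.386% of the gene counts in control mice and 0.377%, 0.338% and 0.372% in diseased mice. The summed macrophage markers given above were lower in diseased mice as well, with no overlap, and their part in the Rab sum was not tested. Taken singly, 6 of the 9 markers were lower and 3 were higher, and 0 met the edgeR calling rule given below.

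By compartment, the early endosome members summed to 980, 991 and 936 CPM in control mice and to 784, 752 and 847 CPM in diseased mice, a difference of -18%. Rab31 and Rab5c carried most of that gap, and the median log2 fold change of the 6 early endosome members was -0.04, with log2 values of -0.08 to 0.05 for Rab5a, Rab5b, Rab22a and Rab21. The medians of the tested recycling, late endosome, Golgi and ER, and secretory members were -0.22, -0.13, -0.11 and -0.24. Recycling endosome members went from a mean of 585 ± 18.4 to 508 ± 15.9 CPM (-13.1%), late endosome, lysosome and phagosome members from 723 ± 23.2 to 635 ± 53.9 CPM (-12.1%), and Golgi and ER members from 877 ± 23.4 to 785 ± 21.7 CPM (-10.5%). In each of these the groups did not overlap. Secretory and surface-directed members went from 770 ± 159 to 684 ± 59.5 CPM (-11.1%) and overlapped, because control mouse 3 stood at 591 CPM. Members with other or unsettled sites went from 177 ± 2.18 to 159 ± 0.676 CPM (-10.3%). As a share of all Rab CPM, early endosome members made up 23.5% to 23.7% in control mice and 21.4% to 23.1% in diseased mice.

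**Figure D2:**
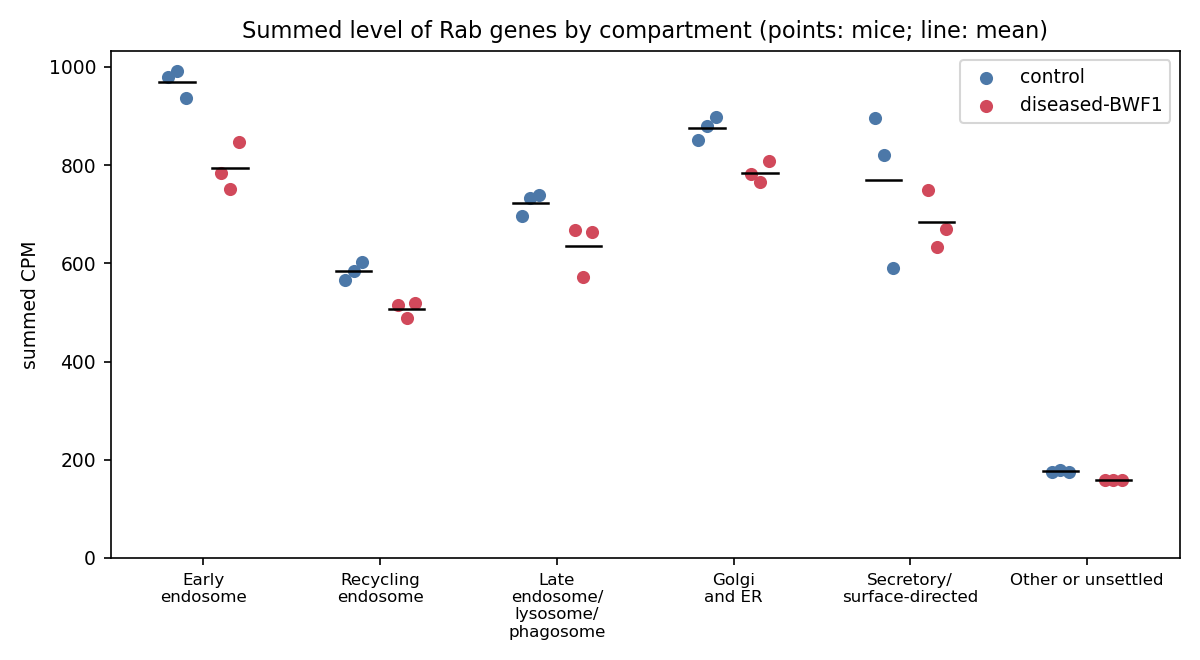
Summed CPM of the Rab genes of each compartment, with 1 point per mouse and a line at the mean of 3 mice. Diseased-BWF1 mice lie below control mice in every compartment but the secretory and surface-directed one, where control mouse 3 reaches 591 CPM.

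Gene by gene, edgeR was run as a quasi-likelihood fit to 10505 genes, and p was adjusted over all of them by Benjamini-Hochberg. Calls needed an adjusted p under 0.05 together with a change of 1.5-fold or more. By this rule 0 of the 41 Rab genes were called, beside 128 of all genes (1.22%). At an unadjusted p under 0.05, 6 Rab genes stood out with edgeR, all 6 lower in diseased mice, namely Rab11a, Rab3d, Rab31, Rab5c, Rab2a and Rab13, where 7.57% of all genes were lower at that level. With DESeq2 at the same thresholds 2 Rab genes were called, Rab11a and Rab3d, beside 3.54% of all genes. Without the fold threshold DESeq2 added Rab31, so that 3 of 41 were lower, where 2.47% of all genes were. Rab11a, Rab31 and Rab3d are on the study's own list of genes lower in diseased mice, chosen on these samples, and their direction here is not independent evidence of it.

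Most tested members had lower values in diseased mice, 33 of 41 (80.5%), beside 49.1% of all genes in the same fit. Their median log2 fold change was -0.15, beside 0.01 over all genes. When counts were scaled by library size alone, 28 members were lower. The median over all genes was then 0.0497, and the share of all genes lower was not counted. In 11 members (26.8%) every diseased mouse was below every control mouse, beside 11.1% of all genes. The 11 were Rab31 and Rab5c of early endosomes, Rab11a and Rab14 of recycling endosomes, Rab1a, Rab1b and Rab2a of the Golgi and ER, Rab3d and Rab13 among the secretory members, and Rab24 and Rab29. The reverse pattern was found in 0 members, beside 9.81% of all genes. These counts hold only members that passed the filter on low counts. With no filter 43 of the 53 members with any count were lower, and the share of all genes lower was not counted there.

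**Figure D3:**
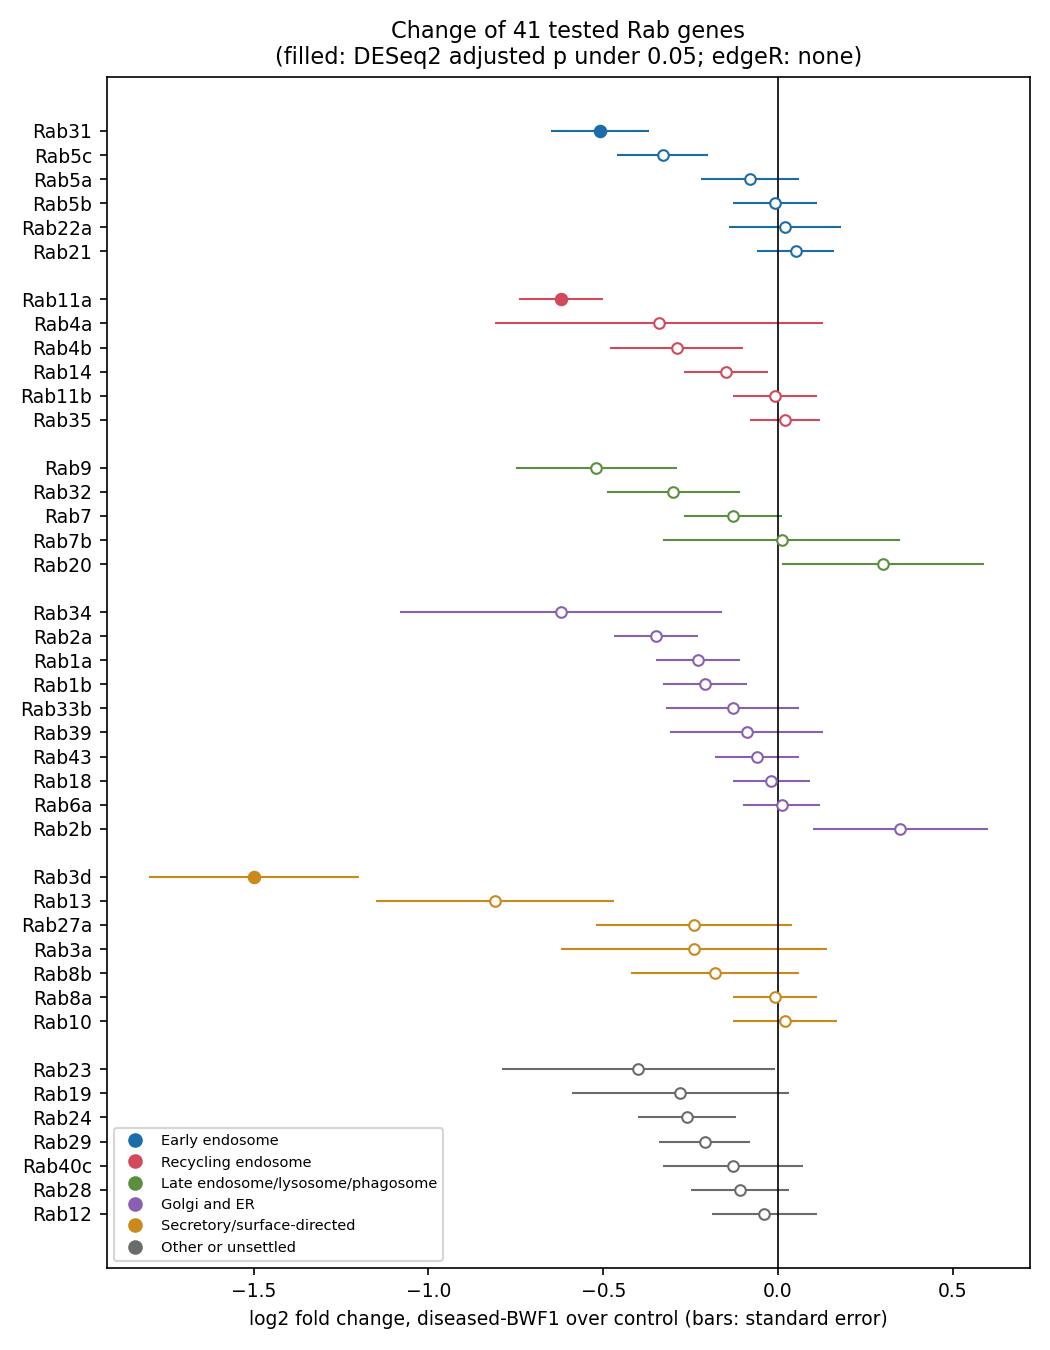
Log2 fold change of diseased-BWF1 over control PMs for the 41 tested Rab genes by compartment, with bars of 1 standard error from edgeR; filled points have a DESeq2 adjusted p under 0.05, and no gene has an edgeR adjusted p under 0.05. Rab3d, Rab11a and Rab31 are the filled points, and 33 of the 41 points lie left of 0.

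Among the recycling endosome Rabs, Rab11a, which sends receptors from the recycling endosome back to the plasma membrane, had the lowest edgeR p of the family. Its normalized counts were 501, 493 and 566 in control mice and 364, 332 and 321 in diseased mice. The groups did not overlap. On the log2 scale the change was -0.62 (standard error 0.12, 95% interval -0.91 to -0.33), with an adjusted p of 0.073 by edgeR and 0.00339 by DESeq2. In 17 alternative fits its log2 fold change ran from -0.68 to -0.55, and its adjusted p was under 0.05 in 1 of them, the DESeq2 fit. Only 1.03% of its 75-base stretches occur in another gene.

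Rab11b, the close paralog of Rab11a, had 439, 459 and 457 normalized counts in control mice and 429, 424 and 502 in diseased mice. The groups overlapped, and the log2 fold change was -0.01 with a 95% interval of -0.29 to 0.27. Of the 75-base stretches of Rab11b 8.08% also occur in other genes, and 65% of its counts lay on a predicted transcript record. The ratio of Rab11a to Rab11b counts within a mouse, which does not depend on library scaling, was 1.14, 1.07 and 1.24 in control mice and 0.850, 0.784 and 0.641 in diseased mice. All 3 diseased mice were below all 3 control mice in this ratio. Rab14, which recycles and sorts between endosomes and the Golgi and was the highest recycling member per length, had 875, 949 and 914 normalized counts in control mice and 831, 785 and 862 in diseased mice. Those groups were apart by a small margin, with a log2 fold change of -0.15 and an edgeR adjusted p of 0.638. Rab35, a Rab of fast recycling, gave close values in both groups, 241, 240 and 234 against 247, 240 and 245 normalized counts, with a log2 fold change of 0.02.

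Of the early endosome Rabs, Rab31 (also called Rab22b), which acts between the trans-Golgi and endosomes, had 1478, 1568 and 1319 normalized counts in control mice. Diseased mice had 1070, 922 and 1090. All diseased mice were lower, by a log2 fold change of -0.51 (standard error 0.14, 95% interval -0.83 to -0.19). The adjusted p was 0.158 by edgeR and 0.021 by DESeq2, and it was under 0.05 in 1 of 17 alternative fits. Its closest paralog Rab22a had 133, 124 and 94.9 normalized counts in control mice and 117, 124 and 118 in diseased mice, which overlapped. The ratio of Rab31 to Rab22a counts was 11.1, 12.7 and 13.9 in control mice and 9.18, 7.44 and 9.25 in diseased mice, apart in the same direction as Rab11a to Rab11b.

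Rab5 proteins drive homotypic fusion of early endosomes and are encoded by 3 genes. Rab5c, the highest of the early endosome members per length, had 1125, 1063 and 1069 normalized counts in control mice and 872, 773 and 967 in diseased mice. Its groups did not overlap, and the log2 fold change was -0.33 with an edgeR adjusted p of 0.349. Rab5a gave 303, 335 and 369 against 281, 322 and 356, and Rab5b 497, 477 and 485 against 433, 525 and 502, both with overlap and with log2 fold changes of -0.08 and -0.01. The ratio of Rab5c to Rab5a ran from 2.89 to 3.72 in control mice and from 2.40 to 3.11 in diseased mice, so that the groups overlapped. Rab21, which follows integrins into endosomes, had 209, 213 and 200 normalized counts in control mice and 216, 211 and 219 in diseased mice, a log2 fold change of 0.05.

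**Figure D4:**
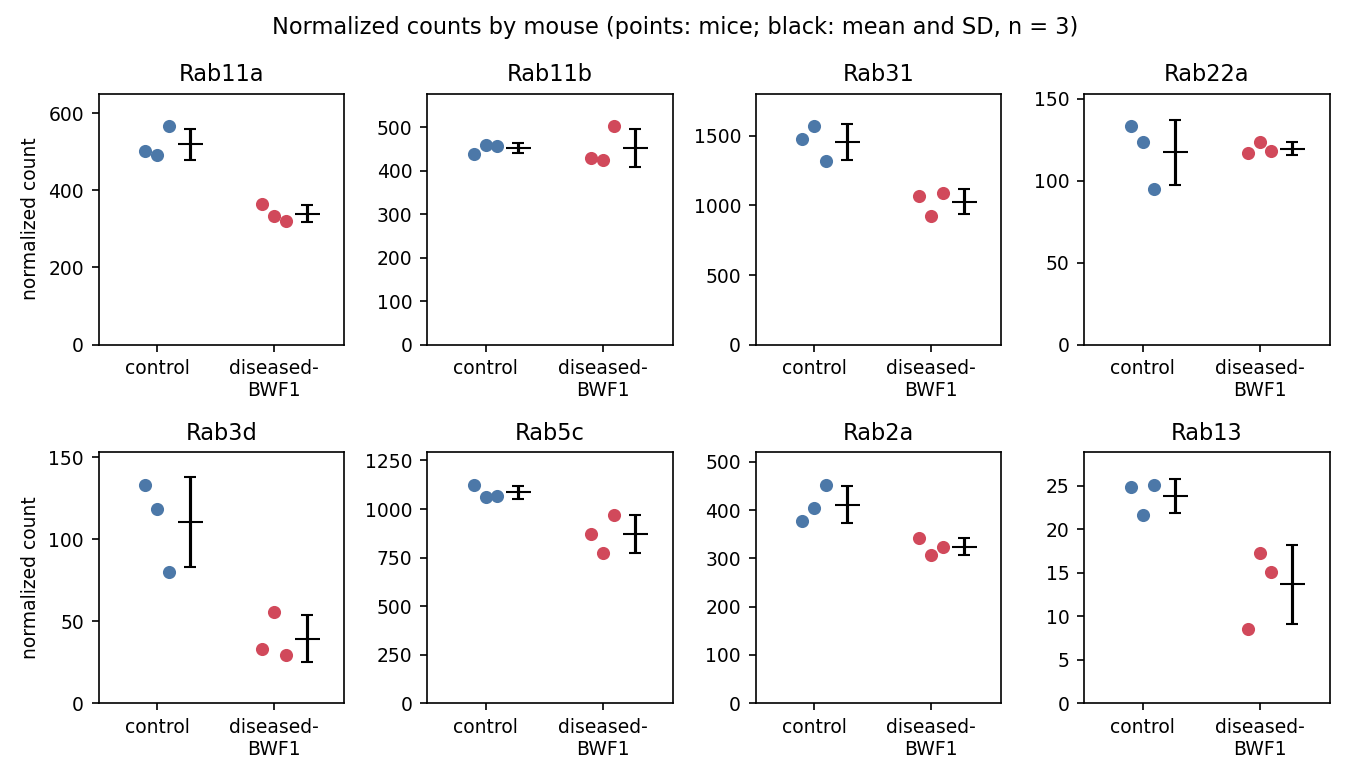
Normalized counts by mouse for 8 Rab genes on linear axes from 0, with black marks at the mean and SD of 3 mice. The groups are apart for Rab11a, Rab31, Rab3d, Rab5c, Rab2a and Rab13, and overlap for the paralogs Rab11b and Rab22a.

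The secretory members held the largest fold change of the family. Rab3d, a Rab of regulated secretory granules, had 133, 118 and 80.0 normalized counts in control mice and 33.2, 55.9 and 29.2 in diseased mice. The groups did not overlap, with a 2.82-fold lower level in diseased mice (log2 fold change -1.50, standard error 0.30, 95% interval -2.20 to -0.79). The adjusted p was 0.073 by edgeR and 0.00319 by DESeq2, and over 17 alternative fits it was under 0.05 in 2, DESeq2 and edgeR with no filter on low counts (0.0184). Of its counts 90.1% lay on 1 transcript record. None of its 75-base stretches, nor any of Rab31 or Rab5c, occurs in another gene.

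Rab13, which works at cell junctions and the surface, had 24.8, 21.6 and 25.1 normalized counts in control mice and 8.53, 17.3 and 15.1 in diseased mice, apart but few. Its log2 fold change was -0.81 with an edgeR adjusted p of 0.362. Rab27a, which docks secretory lysosomes and exosome-bearing endosomes at the plasma membrane, was the highest secretory member per length. It had 1077, 788 and 530 normalized counts in control mice and 817, 707 and 520 in diseased mice, so the spread within control mice was wider than the difference between the groups. Control mouse 3 was also low in Rab8b, an exocytic Rab, with 714 normalized counts beside 1200.0 and 1308 in the other control mice. Rab10, which carries vesicles to the plasma membrane, had 684, 618 and 556 against 647, 541 and 700.3 normalized counts. On the log2 scale its change of 0.02 had a 95% interval of -0.33 to 0.36, and its sign turned in some alternative fits.

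The late endosome and lysosome members gave no gene past an unadjusted p of 0.05 with edgeR, and no member whose groups were apart. Rab32 had 1130, 1138 and 1148 normalized counts in control mice. Diseased mice had 1173, 699 and 917, so that diseased mouse 1 lay above every control mouse and the other two lay below, with a log2 fold change of -0.30. Rab7 had 1194, 1259 and 1353 normalized counts against 1078, 1099 and 1317, with a log2 fold change of -0.13 and a 95% interval of -0.45 to 0.19, and 8.95% of its 75-base stretches also occur in another gene. Rab9, which returns cargo from late endosomes to the trans-Golgi, had 75.3, 61.8 and 98.3 against 46.4, 63.0 and 55.4 normalized counts (log2 fold change -0.52, edgeR adjusted p 0.391). A predicted transcript record held 27.8% of the Rab9 counts, and with curated records alone the log2 fold change was -0.25. Rab20, a Rab of maturing phagosomes, had 60.4, 46.4 and 90.3 against 65.4, 103 and 75.6 normalized counts, which overlapped and differed by 0.30 on the log2 scale. Of its counts 68.6% lay on a predicted transcript record, and with curated records alone the log2 fold change was 0.76.

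Among the Golgi and ER members, Rab1a had 1095, 1087 and 1146 normalized counts in control mice and 990, 887 and 968 in diseased mice, apart, with a log2 fold change of -0.23 and an edgeR adjusted p of 0.471. Rab1b was apart in the same direction by -0.21, and the ratio of Rab1a to Rab1b was 2.23, 2.24 and 2.27 in control mice and 2.43, 2.24 and 2.01 in diseased mice. Rab2a, which also serves ER to Golgi traffic, had 377, 405 and 453 against 341, 308 and 325 normalized counts, apart, with a log2 fold change of -0.35 and an edgeR adjusted p of 0.285. Its paralog Rab2b had 45.5, 53.6 and 38.9 against 57.8, 75.2 and 44.3 normalized counts, which overlapped and differed by 0.35 on the log2 scale. The Rab2a to Rab2b ratio was 8.29, 7.56 and 11.6 in control mice and 5.90, 4.09 and 7.32 in diseased mice. Rab34, a Golgi and macropinosome Rab, had 19.9, 24.7 and 35.4 against 11.4, 29.5 and 11.1 normalized counts, or -0.62 on the log2 scale with a 95% interval of -1.70 to 0.46. Rab43 shares 74.2% of its 75-base stretches with another gene and Rab4b 52.5%, so the values of these members are uncertain.

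**Figure D5:**
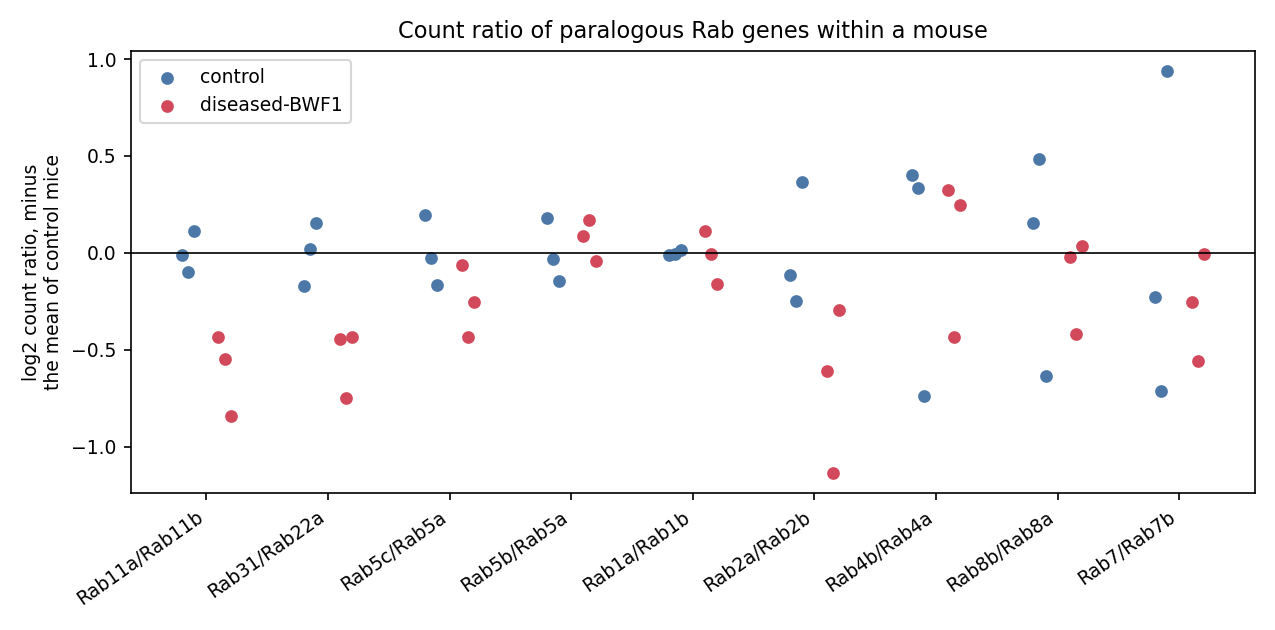
Log2 ratio of the counts of 9 pairs of related Rab genes within each mouse, after subtracting the mean of the 3 control mice. For Rab11a/Rab11b, Rab31/Rab22a and Rab2a/Rab2b all diseased-BWF1 mice lie below all control mice, and the other pairs overlap.

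The pairs were picked by kinship with their values already known, so the ratios are a description. In 3 of 9 pairs the groups were apart, and 3 mice against 3 cannot give an exact two-sided permutation p below 0.1. Adjusted over the 9 pairs by Benjamini-Hochberg, the smallest permutation p was 0.3. How often ratios of other gene pairs were apart was not counted. Log2 of the ratio changed by -0.61 for Rab11a to Rab11b, by -0.54 for Rab31 to Rab22a and by -0.68 for Rab2a to Rab2b. In the pairs that overlapped it changed by -0.27 for Rab7 to Rab7b, -0.25 for Rab5c to Rab5a and -0.14 for Rab8b to Rab8a. It changed by -0.02 for Rab1a to Rab1b, 0.04 for Rab4b to Rab4a and 0.07 for Rab5b to Rab5a.

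The members with other or unsettled sites were all lower in value, 7 of 7. Rab24, linked to autophagy, was the highest of them per length, with 160, 169 and 206 normalized counts in control mice and 156, 149 and 144 in diseased mice (log2 fold change -0.26, edgeR adjusted p 0.507). Rab23, known from Hedgehog signalling, had 6.64 to 16.6 normalized counts per mouse and a log2 fold change of -0.40.

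Promoter sequence was set beside these differences, from RefSeq's GRCm38.p6 starts. The bases just before the start are shown for the 3 genes with a DESeq2 adjusted p under 0.05, for Rab11b as the paralog that gave like values in both groups, and for Rab5a as an early endosome member with the letters CACGTG. All are read 5′ to 3′ on the gene's own strand, and capitals mark GGGCGG or its complement CCGCCC, the GC box of Sp1 factors, and CACGTG, the E-box that basic helix-loop-helix factors of lysosomal and other genes bind. Rab11a lies on the minus strand at chr9:64737757-64737856, Rab31 on the minus strand at chr17:65772753-65772852, Rab3d on the minus strand at chr9:21918200-21918283, Rab11b on the minus strand at chr17:33760487-33760586, and Rab5a on the plus strand at chr17:53479134-53479233.
Rab11a: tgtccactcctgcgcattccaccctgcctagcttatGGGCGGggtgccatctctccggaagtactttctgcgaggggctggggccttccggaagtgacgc
Rab31: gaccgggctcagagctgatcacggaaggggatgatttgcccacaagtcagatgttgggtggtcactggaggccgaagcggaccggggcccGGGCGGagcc
Rab3d: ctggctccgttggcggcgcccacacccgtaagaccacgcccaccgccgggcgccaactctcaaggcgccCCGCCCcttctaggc
Rab11b: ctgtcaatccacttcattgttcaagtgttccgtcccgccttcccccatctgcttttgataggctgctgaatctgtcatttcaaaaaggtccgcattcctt
Rab5a: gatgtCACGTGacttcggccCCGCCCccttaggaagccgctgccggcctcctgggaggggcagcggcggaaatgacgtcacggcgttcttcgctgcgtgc
Rab11a, Rab31 and Rab3d each hold 1 GC box in the stretch shown and no CACGTG, while Rab11b holds neither and Rab5a holds 1 of each. The stretch shown is 84 bases for Rab3d and 100 for the others. Over windows from 250 bases before to 50 after the start, 48 of the 59 genes had 60 promoters listed. A GC box on either strand was in 68.3% of these, beside 35.7% of all 32851 promoters. CACGTG, which reads the same on both strands, was in 6 of the 60 (10%), beside 7.15% of all promoters. The longer TCACGTGA, which contains CACGTG, was in 3 of the 60 (5%), beside 0.974% of all promoters, and these 3 belong to Rab5a, Rab21 and Rab24. Rab11a, Rab31 and Rab3d had no CACGTG in the longer window either. A match of letters is not a binding site, and its absence from a window says nothing of a factor.

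The proteins that run the Rab cycle were read from lists of 153 genes, of which 140 were tested. By edgeR 0 were called, and 91 (65.0%) were lower in value, beside 49.1% of all genes, with a median log2 fold change of -0.09. In 21 genes every diseased mouse was below every control mouse (beside 11.1% of all genes), and in 7 every diseased mouse was above (beside 9.81%). The prenylation and recycling list, whose proteins attach Rabs to membranes and retrieve them, was split 4 to 4. Exchange factors were lower in 27 of 42, GTPase-activating proteins in 21 of 32 and effectors and tethers in 39 of 58.

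With DESeq2, 4 of the 140 tested partner genes had an adjusted p under 0.05, beside 395 of all 10505 genes. Of the 4, 3 were lower, beside 259 of all 10505 genes (2.47%). Neither share was above that of all genes. Mlph encodes melanophilin, an effector that links Rab27a to myosin. Its normalized counts were 20.7, 13.4 and 29.7 in control mice and 0, 1.02 and 3.02 in diseased mice, with no overlap. The adjusted p was 0.0642 by edgeR and 0.00335 by DESeq2. Rin2, an exchange factor for Rab5, had 1198, 1277 and 1284 normalized counts in control mice and 903, 821 and 955 in diseased mice, a log2 fold change of -0.50 with an adjusted p of 0.137 by edgeR and 0.00739 by DESeq2. Plekhm1, a Rab7 effector that joins late endosomes and autophagosomes to lysosomes, had 406, 536 and 413 against 319, 238 and 236 normalized counts, or -0.78 on the log2 scale, with an adjusted p of 0.106 by edgeR and 0.0133 by DESeq2. Dennd3, an exchange factor for Rab12, went the other way, from 9.93, 8.24 and 3.43 to 36.0, 40.6 and 21.2 normalized counts. The log2 difference was 2.12, with an adjusted p of 0.081 by edgeR and 0.0117 by DESeq2. Rab12 itself had a log2 fold change of -0.04. Mlph, Rin2, Plekhm1, Appl2 and Ehbp1 are among the genes that the study listed as changed, chosen on these samples. Appl2, a Rab5 effector, had 462, 462 and 478 normalized counts in control mice and 459.8, 323 and 397 in diseased mice, apart by a narrow margin. Its log2 fold change was -0.25 with an edgeR adjusted p of 0.537. The study listed Appl2 as higher in diseased mice, which is the opposite direction. The values here sum all transcript records of a gene. Whether the study tested records or genes is not stated in its text. The cause of the difference in direction was not tested. Ehbp1, which binds Rab8 and Rab10, had 27.3, 30.9 and 17.1 against 20.9, 35.5 and 25.2 normalized counts, which overlapped. Its log2 fold change was 0.10 with an edgeR adjusted p of 0.929.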

How the data were processed

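RNA of sorted PMs was sequenced, with 1 library for each of 3 control and 3 diseased-BWF1 mice. The authors deposited whole-number counts per RefSeq transcript record, with no normalization. The submitters' processing notes name Salmon 0.8.0, DESeq2 and GRCm38.p6 without saying which step each served. How reads shared between genes were assigned is not given in the sources used here.

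Here the counts of 107193 records were summed by gene symbol with RefSeq's GRCm38.p6 table. Of these records 45754 matched in accession and version and 40712 in accession alone, and 20727 matched no gene and were left out. edgeR 4.0.16 (filterByExpr, TMM, glmQLFTest; R 4.3.3) was fitted to all 10505 genes that passed the filter, with Benjamini-Hochberg adjustment. DESeq2 1.42.0 was an alternative, and normalized counts use its size factors. Log2 fold changes are diseased over control. CPM use TMM-scaled library sizes, and CPM between genes are divided by exon length in kb. Intervals are 95% confidence intervals of the log2 fold change from the edgeR fit, and do not give the range of single mice.

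The genes named are those with an adjusted p under 0.05 by edgeR or DESeq2, Rab11a, Rab31 and Rab3d, and in each compartment the member with the highest level and the largest change in each direction. Other members were named after their values were seen. The members, gene lists and paralog pairs were chosen with earlier results of these data known. Alternatives were RLE, upper quartile and library-size scaling, other filters, age or replicate number in the model, robust fitting, limma 3.58.1 voom, curated records alone, and leaving out each mouse. A cell surface marker is not reported here.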

Additional observations from a re-analysis of the deposited data

How the results depend on the processing

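Of the Rab genes 0 were called by edgeR and 2 by DESeq2 (Rab11a and Rab3d), 1 by edgeR with no low-count filter (Rab3d), and 3 by DESeq2 on adjusted p alone. Of the partner genes 0 were called by edgeR, 3 by DESeq2, 2 with no filter and 4 by DESeq2 on adjusted p alone. Of all genes edgeR called 1.22% and DESeq2 3.54% at both thresholds. The share of all genes called with no filter was not counted, so those calls have nothing to be set beside. The number of Rab genes lower in diseased mice was 28 with scaling by library size alone and 29 to 34 when 1 mouse was left out. The median log2 fold change of the Rab genes was -0.15, and -0.11 with library size alone, a setting chosen, like DESeq2 on adjusted p alone, after seeing the data. When 1 mouse was left out, the median of recycling members ran from -0.23 to -0.07 and that of late endosome members from -0.29 to -0.08, while secretory members ran from -0.40 to -0.06 and early endosome members changed sign, from -0.09 to 0.02; without control replicate 3 the recycling and late endosome medians were -0.07 and -0.29. Rab10, at 0.02, was -0.00 with no filter and ran from -0.07 to 0.12 when 1 mouse was left out, and Rab27a ran from -0.45 to 0.03, the last without control replicate 1. The cause of these shifts was not tested. For Rab11a, Rab31 and Rab3d, 0 of 6 such fits gave an adjusted p under 0.05 by edgeR.

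With replicate number as a block, 0 Rab genes were called and 33 of 41 were lower. Same-numbered mice had correlations of 0.117, 0.006 and 0.157 in their deviations from the group means, so the numbers were not taken to pair mice. At 3 mice a group and at most 5003360 counts a library, members with few counts such as Rab34, Rab4a and Rab23 had standard errors of 0.39 to 0.47.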
